A study of Mus musculus with 9 samples.

Results

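Adipokines are proteins that fat tissue releases into blood, and 8 genes that encode classical members of the group were followed in brown adipose tissue (BAT) of mice. These were Adipoq, Lep, Retn, Cfd, Nampt, Rbp4, Agt and Lcn2, chosen by gene symbol as 8 of the 16937 genes listed in any of the tables. All 8 were listed in all 3 tables, so none was lost to a filter on low counts. Polyadenylated RNA was sequenced from 3 groups of 3 libraries each. WT RT were wild-type mice held at 23°C, WT Cold were wild-type mice after 8 h at 4°C, and GCN2 KO Cold were mice lacking GCN2 in the whole body after the same exposure. GCN2, encoded by Eif2ak4, is a kinase that senses amino acid shortage. All mice were on the C57Bl/6J background, were 12 to 23 wk old, were housed singly for an acclimation period and were killed at the same time of day. Both sexes were used in the study, and the labels name no sex for a library. No GCN2 KO RT group was analysed here, so the response of GCN2 KO mice to cold can only be read against WT RT, and that comparison carries genotype and temperature together. The libraries of a group are called A, B and C after the order of the authors' codes. The prefix of the codes in WT RT differs from that of the cold libraries, and a separate preparation and temperature cannot be told apart. The columns are not tied to individual mice. The title of 1 of the 3 GCN2 KO Cold samples names both genotypes, and that sample was grouped by its genotype field.

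Depth ran from 27058799 to 30768064 reads per library. The tissue label was checked against its markers. The brown adipocyte markers summed to 7933 to 9529 CPM (reads of a gene scaled to a common library total) in WT RT, 13834 to 15420 in WT Cold and 16957 to 17062 in GCN2 KO Cold, and Ucp1 alone gave at least 3592 CPM in every library. Markers of other cell types were present too. The 9 hepatocyte markers, led by Alb, summed to 1410 to 6608 CPM over the libraries, and none of the 9 passed the test in any comparison, though without WT Cold library C all 9 were lower in WT Cold vs WT RT. The 12 skeletal muscle markers summed to 2691 to 3280 CPM in WT RT, 2522 to 4218 in WT Cold and 357 to 1487 in GCN2 KO Cold, where 10 of 12 were lower than in WT RT. Library C of WT Cold and library C of GCN2 KO Cold stood apart in sex-linked transcripts. Ddx3y, encoded on the Y chromosome, was at 7.02 and 10.5 CPM in them and between 84.8 and 144 CPM in the other 7 libraries, and Xist was at 131 and 127 CPM against 11.2 to 43.5. In WT RT all libraries were high in Ddx3y, at 86.8 to 93.4 CPM. Both comparisons with WT RT are thus unbalanced in sex-linked transcripts. Eif2ak4 was at 11.1, 12.6 and 13.0 CPM in WT RT, 6.46, 8.31 and 8.34 CPM in WT Cold and 11.9, 12.7 and 11.8 CPM in GCN2 KO Cold. The targeted transcript was thus not reduced in libraries labelled GCN2 KO Cold (log2 fold change of 0.78 ± 0.15 SE against WT Cold, adjusted p = 0.0932 by limma). By DESeq2 it was higher there (adjusted p = 0.00280), and the groups did not overlap. A count over the whole gene does not show whether part of it is deleted. Scaling mattered for directions. Over all genes the test gave 2268 higher and 2356 lower in WT Cold vs WT RT, 29 and 37 in GCN2 KO Cold vs WT Cold and 2713 and 2944 in GCN2 KO Cold vs WT RT, and CPM in place of the authors' size factors gave 1579 and 2909, 12 and 77, and 1480 and 4837. In the last of these comparisons CPM moved the median log2 fold change of all genes from 0.009 to -0.15.

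Adipoq encodes adiponectin, an insulin-sensitizing hormone, and Lep encodes leptin, which signals the size of the fat stores to the brain. Retn encodes resistin, which in mice opposes insulin action, and Cfd encodes complement factor D, or adipsin, the protease that starts the amplification loop of the alternative complement pathway. Nampt makes nicotinamide mononucleotide, a precursor of NAD, inside cells and is also released from them. Rbp4 carries retinol in blood, Agt is the precursor of the angiotensins, and Lcn2 encodes lipocalin 2, which binds bacterial iron carriers and is induced in inflammation. Brown fat burns lipid to make heat when sympathetic nerves release noradrenaline in the cold, and it shares many secreted products with white fat, where leptin is by far more abundant. The liver is the main source of circulating RBP4 and angiotensinogen. On GRCm38 (GENCODE M21) Adipoq lies at chr16:23146536-23158028, Lep at chr6:29060220-29073877, Retn at chr8:3655770-3660110, Cfd at chr10:79890853-79892655 and Nampt at chr12:32819545-32853349, all on the plus strand. Rbp4 at chr19:38116629-38125281, Agt at chr8:124556534-124569706 and Lcn2 at chr2:32384633-32388252 are on the minus strand.

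The upstream DNA of the 3 genes that passed the test in WT Cold is shown, because the motif search covered it. RefSeq promoter windows (GRCm38.p6, 250 bases before to 50 after the start site) were found for all 8 genes, with a second window for Rbp4. The 250 upstream bases are printed 5′ to 3′ on the strand of the gene, with capitals for matches to the 8 motifs searched. Cfd lies on the plus strand at chr10:79890603-79890852, Nampt on the plus strand at chr12:32820085-32820334 and Agt on the minus strand at chr8:124569707-124569956. In GENCODE M21 the printed bases of Cfd and Agt lie just outside their annotated gene. Those of Nampt lie within it, since the annotated Nampt gene starts upstream of its window.
Cfd: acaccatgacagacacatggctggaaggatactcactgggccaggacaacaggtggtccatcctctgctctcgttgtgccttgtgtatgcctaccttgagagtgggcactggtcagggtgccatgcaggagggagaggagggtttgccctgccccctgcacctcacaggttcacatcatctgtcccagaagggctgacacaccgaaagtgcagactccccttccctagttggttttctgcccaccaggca
Nampt: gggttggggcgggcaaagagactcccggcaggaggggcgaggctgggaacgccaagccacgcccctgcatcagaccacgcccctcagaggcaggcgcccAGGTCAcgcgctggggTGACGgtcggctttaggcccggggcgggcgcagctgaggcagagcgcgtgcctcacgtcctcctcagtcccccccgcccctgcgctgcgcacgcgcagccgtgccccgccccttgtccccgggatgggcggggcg
Agt: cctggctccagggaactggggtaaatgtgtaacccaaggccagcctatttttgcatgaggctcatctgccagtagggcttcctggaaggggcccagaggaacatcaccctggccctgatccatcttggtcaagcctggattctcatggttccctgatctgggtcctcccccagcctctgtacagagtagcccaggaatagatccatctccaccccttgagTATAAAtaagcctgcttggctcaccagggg
The windows of 300 bases were searched on both strands. The cAMP response half-site TGACG was found in Nampt and in a window of Rbp4 and in 20.8% of all 32851 windows, and the nuclear receptor half-site AGGTCA in Nampt and in 16.3% of all windows. The TATA box TATAAA lay in Agt and in a window of Rbp4 and in 13.6% of all windows, and the NF-kB motif GGGNNTTCC in Retn and in 5.82%. None of the 9 windows of the 8 genes held the E-box CACGTG, the C/EBP motif TTNNGNAAT, the glucocorticoid receptor half-site AGAACA or the SREBP motif TCACNCCAC, which were in 7.15, 11.5, 19 and 1.24% of all windows. No motif was shared by the 3 genes, and in the Cfd window none of the 8 motifs was matched.

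Per length of transcript, the 8 genes spanned a wide range in WT RT. Cfd was the most abundant at 1174 ± 379 RPKM (CPM per kilobase of exon, SD, n = 3) and ranked 26 of 16806 genes with a known length. Adipoq followed at 658 ± 83.1 RPKM and rank 57, then Rbp4 at 155 ± 10.1 RPKM and rank 301, Retn at 84.9 ± 9.31 RPKM and rank 546 and Nampt at 65.3 ± 8.76 RPKM and rank 705. Agt (11.3 ± 2.06 RPKM, rank 3323), Lcn2 (7.42 ± 0.254 RPKM, rank 4531) and Lep (5.80 ± 2.81 RPKM, rank 5393) were far less abundant. In WT RT the libraries of neighbours in this order did not overlap in RPKM, except those of Lcn2 and Lep. In WT Cold the order was Cfd (2060), Adipoq (552), Rbp4 (114), Nampt (106), Retn (85.7), Agt (21.8), Lcn2 (8.95) and Lep (3.23 RPKM), in which Rbp4 and Nampt, Nampt and Retn, Agt and Lcn2, and Lcn2 and Lep overlapped. GCN2 KO Cold had the same order as WT Cold, from 1608 RPKM for Cfd to 1.97 RPKM for Lep, with overlap of Nampt and Retn, and of Agt and Lcn2. Together the 8 genes took 0.232 to 0.332% of reads in WT RT, 0.267 to 0.418% in WT Cold and 0.285 to 0.331% in GCN2 KO Cold, and these ranges overlap.

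**Figure D1:**
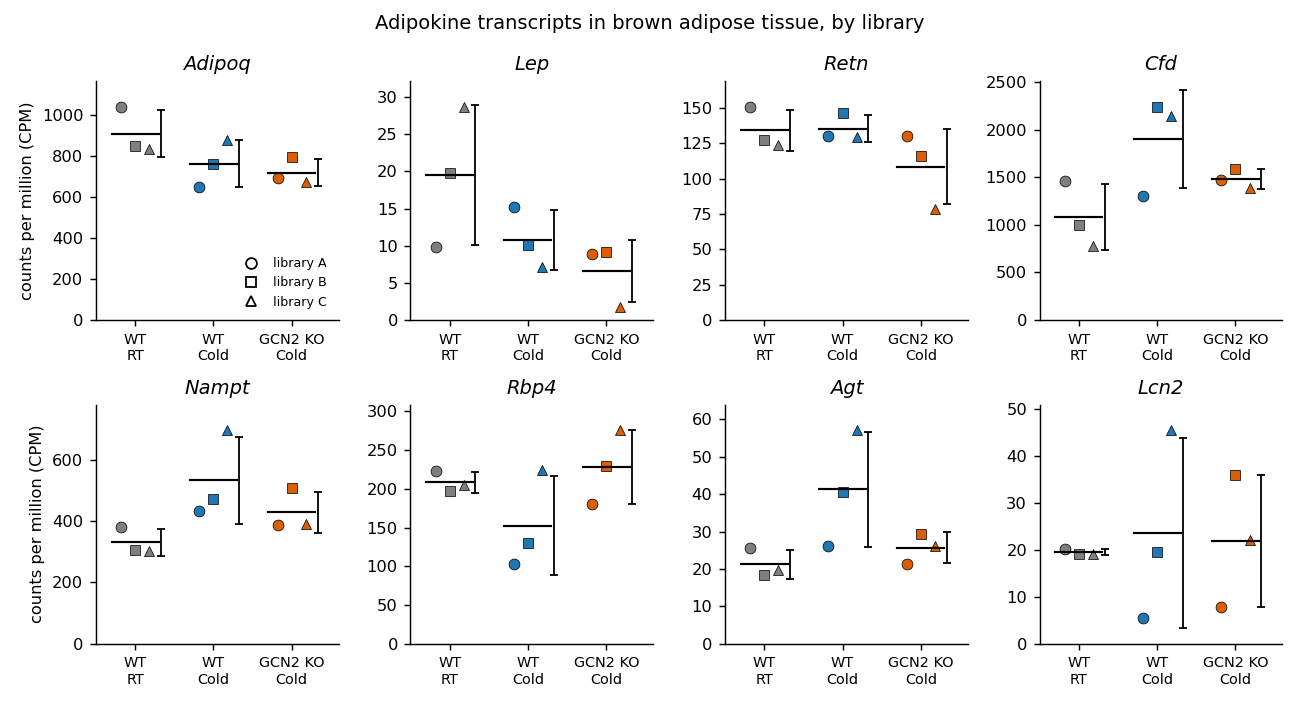
Each panel plots the CPM of 1 adipokine gene in the 3 libraries of WT RT, WT Cold and GCN2 KO Cold, with marker shapes for libraries A, B and C, a line at the mean and a bar for 1 SD. Nampt and Agt in WT Cold sit above all WT RT libraries, while Lcn2 spreads from 5.49 to 45.4 CPM within WT Cold.

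The comparison of WT Cold with WT RT asks what 8 h at 4°C does to these transcripts in BAT. Cfd, Nampt and Agt rose, by 1.87-fold (95% interval 1.22 to 2.87), 1.69-fold (1.24 to 2.29) and 1.98-fold (1.26 to 3.09), and no member fell at an adjusted p below 0.05. Over all 16679 genes tested in this comparison, 13.6% were higher and 14.1% lower by the same rule. The log2 fold changes of the 8 genes had a median of -0.005, against 0.003 for all genes. No member passed the study's stricter rule of an adjusted p below 0.05 with an absolute log2 fold change over 1, which 8.14% of all genes passed. At an unadjusted p below 0.05 the number passing this fold was also 0 by limma, while DESeq2 and edgeR on the recovered reads each placed 1 member, Agt, past both thresholds. The groups did not overlap for 2 of the 8 members, Nampt and Agt, and for 45.5% of all genes. Separation was thus no more frequent among the members than over all genes.

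Agt had 25.7, 18.4 and 19.7 CPM in WT RT and 26.2, 40.5 and 57.1 CPM in WT Cold. All WT Cold libraries were above all WT RT libraries, though the lowest of them exceeded the highest WT RT library only narrowly. The log2 fold change was 0.98 ± 0.28 (SE, adjusted p = 0.0345 by limma). Nampt was at 381, 305 and 304 CPM in WT RT and 433, 472 and 696 CPM in WT Cold, again without overlap, with a log2 fold change of 0.75 ± 0.19 (adjusted p = 0.0224 by limma). Cfd, at 1465, 1001 and 779 CPM in WT RT and 1307, 2243 and 2147 CPM in WT Cold, overlapped, since library A of WT Cold was below library A of WT RT. Its log2 fold change was 0.90 ± 0.27 (adjusted p = 0.0397 by limma). In CPM Cfd did not pass with the 2 groups alone (0.82, adjusted p = 0.0559) and passed in the joint fit of all 9 libraries (adjusted p = 0.0294). These calls rest on few libraries. Without WT RT library B or without WT RT library C no member passed, without WT Cold library B only Nampt did, without WT RT library A Cfd and Nampt did, and a fit with no mean-variance trend also called none (adjusted p from 0.0626 to 0.0886).

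The other 5 members did not pass the test in WT Cold. Adipoq was at 1041, 850 and 835 CPM in WT RT and 647, 763 and 877 CPM in WT Cold (log2 fold change -0.17 ± 0.14, adjusted p = 0.395 by limma), and the groups overlapped. Its 95% interval ran from 0.708-fold to 1.11-fold. Retn was at 151, 127 and 124 CPM in WT RT and 130, 147 and 129 CPM in WT Cold, and its interval of 0.925-fold to 1.25-fold was the narrowest of the 8 in this comparison. Lep was at 9.88, 19.8 and 28.7 CPM in WT RT and 15.2, 10.1 and 7.19 CPM in WT Cold. The means differed by a log2 fold change of -0.70 ± 0.41 (adjusted p = 0.241 by limma), within a spread that covered 2.91-fold between the WT RT libraries alone. Lep also serves as a white adipocyte marker here. The 10 white adipocyte markers, Lep included, summed to 206 to 302 CPM in WT RT and 115 to 169 CPM in WT Cold, with 4 members lower and 1 higher, and the part of white fat in the Lep values was not tested. In bulk tissue fewer cells of a type and less RNA per cell cannot be told apart.

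Rbp4 and Lcn2 spread widely between WT Cold libraries, as did Agt (CV 37.5%) and Lep (CV 37.3%). Rbp4 was at 224, 197 and 205 CPM in WT RT, a coefficient of variation (CV) of 6.50%, and at 103, 130 and 224 CPM in WT Cold, a CV of 41.6%. Lcn2 was at 20.2, 19.0 and 19.1 CPM in WT RT (CV 3.43%) and at 5.49, 19.6 and 45.4 CPM in WT Cold (CV 86.1%). In WT Cold the CV of Lcn2 was higher than that of 99.7% of genes within 2-fold of its level, and that of Rbp4 was higher than 96.8% of such genes. The log2 fold changes were -0.44 ± 0.26 for Rbp4 (adjusted p = 0.245 by limma) and -0.11 ± 0.65 for Lcn2 (adjusted p = 0.913 by limma). Library C of WT Cold, which is low in Ddx3y, held the highest level of both. Without it Rbp4 was lower in WT Cold (log2 fold change -0.78 ± 0.12, adjusted p = 0.00238 by limma), Nampt and Agt were still called higher and Cfd was not (adjusted p = 0.0644). Without WT Cold library A, Rbp4 was at -0.18 (adjusted p = 0.601), and it passed in only 1 of 14 alternatives. In the fit without library C 9 of 9 hepatocyte markers were lower too, and their part in the Rbp4 value was not tested.

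**Figure D2:**
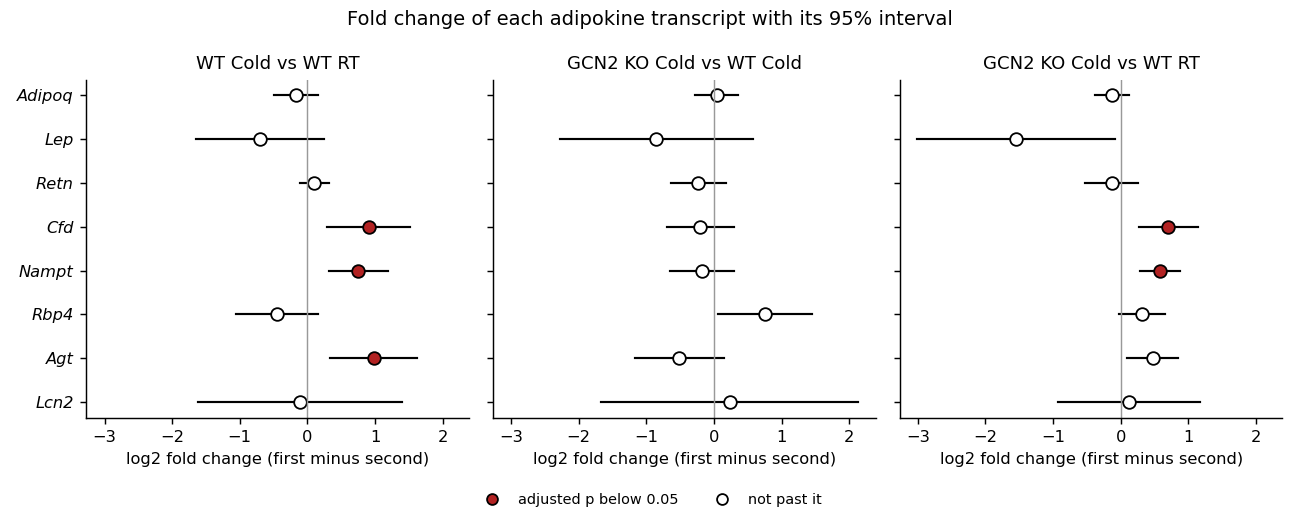
Points are log2 fold changes of the 8 genes from limma in the 3 comparisons, bars are 95% intervals, and filled points passed an adjusted p below 0.05. Cfd, Nampt and Agt are filled in WT Cold vs WT RT, Cfd and Nampt in GCN2 KO Cold vs WT RT, and no point is filled in GCN2 KO Cold vs WT Cold.

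The comparison of GCN2 KO Cold with WT Cold addresses the role of GCN2 within the cold. None of the 8 members differed at an adjusted p below 0.05 by limma, DESeq2 or edgeR, and 1 (Rbp4) had an unadjusted p below 0.05 by limma. By limma few genes passed here at all, with 0.178% of 16312 genes higher and 0.227% lower and 0.257% past both thresholds. DESeq2 called more, 232 higher and 294 lower, and the joint fit of all 9 libraries on CPM 52 and 376. A count of 0 among 8 is near the limma background. The groups overlapped for all 8 members. They did not overlap for 22% of all genes, and among 8 genes a count of 0 is not far from that share. The members had a median log2 fold change of -0.19, against -0.003 for all genes. Without both libraries low in Ddx3y the count was also 0.

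Rbp4 was at 180, 229 and 276 CPM in GCN2 KO Cold and at 103, 130 and 224 CPM in WT Cold, and 2 of its 3 libraries were above every WT Cold library. The log2 fold change was 0.75 ± 0.30 (SE, adjusted p = 0.286 by limma) and came to 1.09 ± 0.19 without WT Cold library C (adjusted p = 0.0981) and to 0.49 without WT Cold library A (adjusted p = 0.560). Agt was at 21.2, 29.4 and 26.2 CPM in GCN2 KO Cold against 26.2, 40.5 and 57.1 CPM in WT Cold (log2 fold change -0.51 ± 0.28, adjusted p = 0.454 by limma), and its log2 fold change was -0.22 without WT Cold library C and -0.82 without WT Cold library A. Lep was at 8.93, 9.11 and 1.77 CPM in GCN2 KO Cold, and the value in library C rested on 48 reads, the fewest of any member in any library. The log2 fold change of Lep against WT Cold was -0.85 ± 0.61 (adjusted p = 0.570 by limma) and moved to -0.08 without that library. Lcn2 spread over 7.88, 35.9 and 22.0 CPM in GCN2 KO Cold (CV 63.9%), and its 95% interval against WT Cold ran from 0.314-fold to 4.39-fold, so even a large difference was not detectable.

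The remaining members had closer intervals. Adipoq was at 691, 794 and 671 CPM in GCN2 KO Cold, 0.825-fold to 1.28-fold of WT Cold by its 95% interval. Retn was at 130, 116 and 78.8 CPM (interval 0.643-fold to 1.13-fold), with the low value again in library C. Cfd was at 1472, 1592 and 1385 CPM (interval 0.618-fold to 1.22-fold) and Nampt at 389, 506 and 392 CPM (interval 0.640-fold to 1.22-fold). None of these 4 intervals reached 2-fold in either direction, but a p that misses the threshold does not show that the groups were equal.

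GCN2 KO Cold was also set against WT RT, the same WT RT libraries that serve WT Cold, so the values of both comparisons are given side by side and share their controls. Cfd rose by 1.63-fold (95% interval 1.21 to 2.20, adjusted p = 0.0215 by limma), after 1.87-fold in WT Cold. Nampt rose by 1.49-fold (1.21 to 1.83, adjusted p = 0.0102 by limma), after 1.69-fold in WT Cold. Agt, which was called in WT Cold, had a log2 fold change of 0.47 ± 0.16 here and did not pass (adjusted p = 0.0545 by limma), and the direct comparison of the 2 cold groups did not separate them. In this comparison 2 of 8 members were higher and 0 lower, beside 16.4% of 16560 genes higher and 17.8% lower. The members' median log2 fold change was 0.22, against 0.009 for all genes. The groups of Cfd and Nampt did not overlap in normalized counts, as for 49.2% of all genes, although in CPM a WT RT library of Cfd (1465) was above a GCN2 KO Cold library (1385). No member passed both thresholds, which 10.6% of all genes did, and DESeq2 and edgeR gave 0 as well.

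Lep had the largest difference in size, a log2 fold change of -1.55 ± 0.64 (adjusted p = 0.0957 by limma), and it was the 1 member with an unadjusted p below 0.05 and an absolute log2 fold change over 1. Without library C of GCN2 KO Cold its log2 fold change was -0.78, and a joint fit of all 9 libraries on CPM called it lower (-1.53, adjusted p = 0.0397). Adipoq had a log2 fold change of -0.13 ± 0.11, Retn -0.13 ± 0.17, Rbp4 0.31 ± 0.15 and Lcn2 0.12 ± 0.46, and none of these passed. Scaling bears on these calls. In CPM Cfd and Nampt no longer passed (log2 fold changes 0.50 and 0.37, adjusted p = 0.0836 and 0.0509 by limma) and Adipoq was called lower (-0.33, adjusted p = 0.0415). By libraries, leaving out WT RT B, WT RT C or GCN2 KO Cold B left only Nampt called, and leaving out GCN2 KO Cold A gave 5 members higher, with Rbp4, Agt and Lcn2 added. Leaving out WT RT A added Agt to Cfd and Nampt.

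Rbp4, Agt and Lcn2 were set beside the markers of hepatocytes, the cells that make most plasma proteins. The hepatocyte markers summed to 4276, 3292 and 3533 CPM in WT RT, 1410, 2516 and 6608 CPM in WT Cold and 2256, 4678 and 5109 CPM in GCN2 KO Cold. In all 3 groups the order of the libraries in Rbp4 was the order in this sum. For Agt and Lcn2 the orders were the same in WT RT and WT Cold and not in GCN2 KO Cold. Adipoq and Nampt had the order of this sum in WT Cold. With 3 libraries an order is easily shared, and Retn had that of the skeletal muscle markers in WT RT and GCN2 KO Cold. Alb itself, the main protein of plasma, was at 841 to 3918 CPM. Ratios to Alb were taken in each library. The hepatocyte markers Apoa1 and Fga gave 11.7 to 15.7 and 12.6 to 20.9 reads per 100 Alb reads, ranges of 1.34-fold and 1.66-fold. Rbp4 gave 5.72 to 14.2, a range of 2.48-fold, and Agt gave 0.949 to 3.11, a range of 3.28-fold. Per 100 Alb reads Agt was at 1.08, 1.03 and 1.01 in WT RT and at 3.11, 2.73 and 1.46 in WT Cold, with no overlap, and at 1.67, 1.18 and 0.949 in GCN2 KO Cold. Alb, the divisor, was at 2384, 1789 and 1947 CPM in WT RT and at 841, 1486 and 3918 CPM in WT Cold. The ratio moves with Alb as well as with Agt, so it cannot show a change of Agt alone. Rbp4 was at 9.38, 11.0 and 10.5 in WT RT and at 12.3, 8.77 and 5.72 in WT Cold, with overlap. How much of the Rbp4 and Agt signal came from hepatocyte RNA was not tested.

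**Figure D3:**
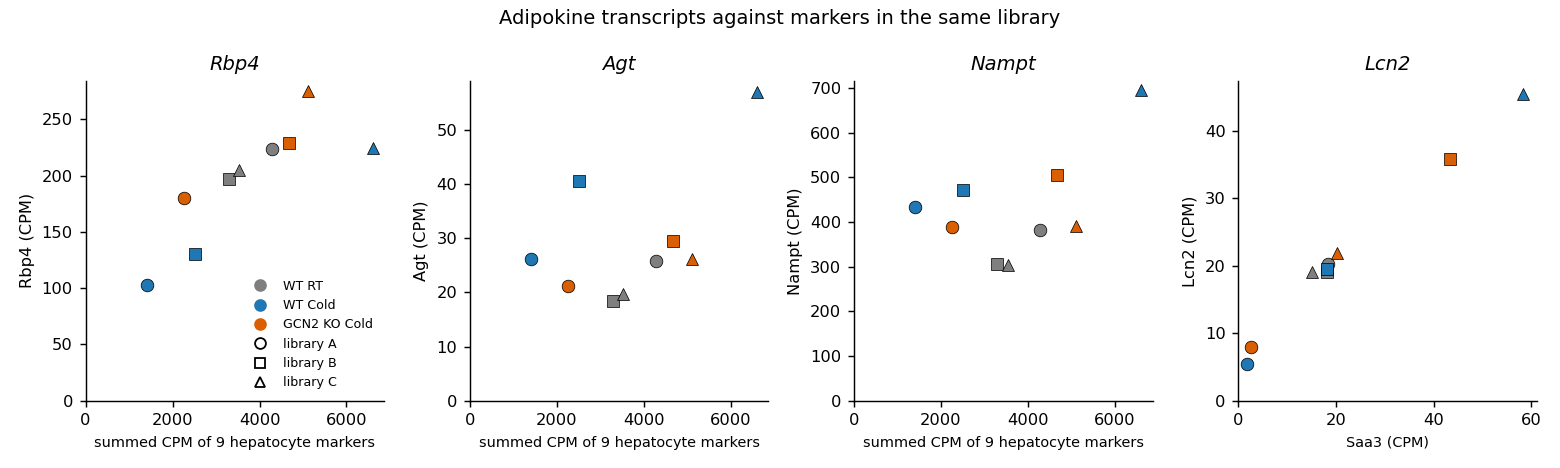
Each point is a library, coloured by group and shaped by library letter, with the CPM of Rbp4, Agt and Nampt against the summed CPM of the 9 hepatocyte markers and the CPM of Lcn2 against Saa3. Rbp4 and the hepatocyte sum share their order of libraries within each group, and WT Cold library C has the highest hepatocyte sum (6608 CPM) and the highest Agt, Nampt and Lcn2.

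The genes most alike in pattern were taken from 14041 genes with a mean of at least 1 CPM, by Pearson's r of log2(CPM + 1) over the 9 libraries, which differ in group, and are given as a description. For Lcn2 they were Saa3 (r = 0.995), Orm2 (r = 0.981) and Saa2 (r = 0.971), acute phase genes. Saa3 was at 18.4, 18.2 and 15.2 CPM in WT RT, 1.73, 18.1 and 58.3 CPM in WT Cold and 2.68, 43.4 and 20.1 CPM in GCN2 KO Cold, and like Lcn2 it was lowest in library A of both cold groups. For Rbp4 they were Cyp4a12a (r = 0.984), Serpina1e (r = 0.983) and Cyp2d9 (r = 0.979), genes known for their expression in liver. Rcl1 was alike to both Nampt (r = 0.985) and Agt (r = 0.942). Nampt also had Fxyd1 (r = 0.961) and Cyp1b1 (r = 0.947), and Agt had Ppm1k (r = 0.976), a phosphatase of branched-chain amino acid breakdown, and Lifr (r = 0.941). Retn had 4930429F24Rik (r = 0.980) and Opn3 (r = 0.963). Lep was closest to Ints1 (r = 0.954), Dlg5 and Nptxr (both r = 0.953), Adipoq to A4galt (r = 0.945), Cir1 (r = 0.937) and Slc26a11 (r = 0.935), and Cfd, with the lowest values, to Desi1 (r = 0.916), Arl6ip1 (r = 0.907) and Pim3 (r = 0.902).

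The receptors and partners through which these hormones act were described next, as a list of 20 genes of which 14 were tested. In WT Cold vs WT RT 2 rose and 4 fell (median log2 fold change 0.03), beside 13.6% of all genes higher and 14.1% lower. The 2 of 14 that rose are near that share. Adipor2, an adiponectin receptor, fell by 0.56 ± 0.09 on the log2 scale (SE, adjusted p = 0.00453 by limma). C3ar1 and C5ar1, the receptors of complement fragments C3a and C5a, fell by 1.69 ± 0.35 and 0.99 ± 0.31 (adjusted p = 0.0112 and 0.0475), and Tlr4, a receptor of bacterial lipopolysaccharide, by 0.72 ± 0.20 (adjusted p = 0.0343). In GCN2 KO Cold vs WT RT 1 rose and 6 fell (median -0.23), beside 16.4% of all genes higher and 17.8% lower. C3ar1 was at -2.47, C5ar1 at -1.39, Tlr4 at -1.02 and Adipor2 at -0.80 there. C3ar1 and C5ar1 are known from myeloid cells, and macrophage markers moved with them. The 10 macrophage markers summed to 452 to 655 CPM in WT RT, 256 to 394 CPM in WT Cold and 188 to 281 CPM in GCN2 KO Cold, with 6 and 9 of 10 lower in the 2 comparisons, and their part in the receptor levels was not tested.

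Genes of adiponectin assembly and release, 9 tested, were divided, with 2 higher and 3 lower in WT Cold (median log2 fold change 0.15) and 4 higher and 3 lower in GCN2 KO Cold (median -0.05) against WT RT. Over all genes 13.6% were higher and 14.1% lower in WT Cold, and 16.4% and 17.8% in GCN2 KO Cold. Of 11 brown adipocyte markers 7 rose and 1 fell in WT Cold, and 8 rose and 1 fell in GCN2 KO Cold. Their part was not tested. Pdia4, a disulfide isomerase of the endoplasmic reticulum, fell by 0.74 ± 0.15 on the log2 scale in WT Cold (adjusted p = 0.00997 by limma), and Cavin1, a coat protein of caveolae, by 0.52 ± 0.13 (adjusted p = 0.0198). Gstk1, also called DsbA-L, rose by 0.46 ± 0.09 (adjusted p = 0.0102), and Appl1, an adaptor of the adiponectin receptors, fell by 0.36 ± 0.09 (adjusted p = 0.0211). Against WT RT the values in GCN2 KO Cold were Pdia4 -0.90, Cavin1 -0.71, Gstk1 0.77 and Appl1 -0.52.

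Of 9 tested renin angiotensin enzymes, which act on Agt and its products, none rose and 4 fell in WT Cold (median log2 fold change -0.36) and 6 in GCN2 KO Cold (median -0.71) against WT RT, beside 14.1% and 17.8% of all genes lower. Markers of preadipocytes and fibroblasts fell beside them, 4 and 5 of 9, with sums of 1041 to 1234 CPM in WT RT, 822 to 920 CPM in WT Cold and 587 to 708 CPM in GCN2 KO Cold. Of 7 endothelial markers, 2 rose in WT Cold, and 1 rose and 3 fell in GCN2 KO Cold, and the part of these cells in the enzyme levels was not tested. Enpep, the aminopeptidase that shortens angiotensin II, fell by 1.08 ± 0.11 on the log2 scale in WT Cold (adjusted p = 0.000608 by limma) and was at -1.22 in GCN2 KO Cold. Nln, neurolysin, fell by 0.67 ± 0.13 in WT Cold (adjusted p = 0.00746), Mme, neprilysin, by 0.36 ± 0.10 (adjusted p = 0.0295) and Ctsd, cathepsin D, by 0.30 ± 0.08 (adjusted p = 0.0312). Ace, the angiotensin converting enzyme, fell in GCN2 KO Cold vs WT RT (-0.79, adjusted p = 0.0104), as did Cma1, a mast cell protease (-1.21, adjusted p = 0.0176). Against WT Cold, Ace had a log2 fold change of -0.88 ± 0.21 (adjusted p = 0.130 by limma).

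Of the 15 other tested genes of the alternative complement pathway none rose, beside 13.6% of all genes higher and 14.1% lower in WT Cold, and 3 fell in WT Cold (median log2 fold change -0.44) and 6 in GCN2 KO Cold (median -0.16) against WT RT. C3ar1 and C5ar1 belong to this list as well as to the receptors. C5ar2, the second receptor of C5a, was at -1.47 (adjusted p = 0.0148 by limma) in WT Cold, beside C3ar1 and C5ar1 above. Cfp, properdin, which stabilizes the convertase, was at -1.48 (adjusted p = 0.000818) in GCN2 KO Cold vs WT RT. The count in WT Cold turned on library C, since without it 11 of 15 fell, and in that fit 9 of 9 hepatocyte and 8 of 10 macrophage markers fell as well, while Cfd was not called. The part of these cells in the complement counts was not tested. Cd59a, which blocks the membrane attack complex, was the only gene of the 10 lists around the members that passed by limma in GCN2 KO Cold vs WT Cold with all libraries (-0.61 ± 0.09, adjusted p = 0.0460 by limma), at 2047 ± 173 against 3122 ± 141 normalized counts (SD, n = 3).

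Nampt was followed with 18 genes of NAD synthesis and use, of which 3 rose and 5 fell in WT Cold (median log2 fold change -0.17) and 3 rose and 6 fell in GCN2 KO Cold (median -0.09) against WT RT. Over all genes 13.6% rose and 14.1% fell in WT Cold, and 16.4% and 17.8% in GCN2 KO Cold, so the 3 that rose are near those shares. Macrophage markers fell beside them (6 and 9 of 10), and their part was not tested. Nnmt, which methylates nicotinamide and so removes the substrate of Nampt, had the largest change, from 1487 ± 133 to 9765 ± 1723 normalized counts in WT Cold (log2 fold change 2.70 ± 0.13, adjusted p = 4.19e-05 by limma), and was at 2.97 in GCN2 KO Cold. Cd38, an enzyme that breaks down NAD, rose by 0.89 ± 0.12 (adjusted p = 0.00197), and Slc25a51, the mitochondrial NAD carrier, by 0.79 ± 0.11 (adjusted p = 0.00234). Naprt, which makes NAD from nicotinic acid, fell by 0.98 ± 0.13 (adjusted p = 0.00167). Lower in GCN2 KO Cold vs WT RT were Nmnat3, a mitochondrial enzyme of NAD synthesis, and Nadk2, which phosphorylates NAD (-0.90 and -0.67).

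Around Rbp4, 21 genes of vitamin A transport and metabolism were tested, with 1 higher and 3 lower in WT Cold (median log2 fold change -0.22) and 2 higher and 5 lower in GCN2 KO Cold (median -0.11) against WT RT. The 3 of 21 lower in WT Cold are near the 14.1% of all genes, and preadipocyte and fibroblast markers fell beside them (4 and 5 of 9), with their part not tested. Rbp7, a cellular retinol-binding protein of adipose tissue, rose from 860 ± 158 to 2327 ± 51.5 normalized counts in WT Cold (log2 fold change 1.45 ± 0.13, adjusted p = 0.000493 by limma) and was at 1.69 in GCN2 KO Cold. Aldh1a7, an aldehyde dehydrogenase, fell by 1.34 ± 0.08 in WT Cold (adjusted p = 0.000121), and Cyp26b1, which degrades retinoic acid, by 1.30 ± 0.38 (adjusted p = 0.0395). Dhrs3, a retinal reductase, fell by 0.43 ± 0.11 in WT Cold (adjusted p = 0.0266). In GCN2 KO Cold vs WT RT Aldh1a3, which makes retinoic acid, was at -1.41 and the receptor Rarg at -0.61. Aldh1a7 had the smallest p of this list in GCN2 KO Cold vs WT Cold, at 0.78 ± 0.12 (adjusted p = 0.0564 by limma).

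Among 15 tested genes of the resistin family and the acute phase proteins, 2 rose and 1 fell in WT Cold (median log2 fold change -0.40). Beside 13.6% of all genes higher and 14.1% lower, the 2 of 15 that rose are near the background. Both risers were metallothioneins, which bind zinc, Mt2 at 2.16 ± 0.28 and Mt1 at 1.97 ± 0.20 (adjusted p = 0.00178 and 0.000641 by limma), and Steap4, a metalloreductase, fell by 0.65 ± 0.15 (adjusted p = 0.0160). Here too the count turned on library C of WT Cold, since without it 6 of 15 fell, as did 9 of 9 hepatocyte markers, whose part in this was not tested. Against WT RT, 4 rose and 1 fell in GCN2 KO Cold (median -0.07), Saa1 (0.59, adjusted p = 0.0265) among the risers. Over all genes 16.4% were higher and 17.8% lower in that comparison. Neutrophils also make Lcn2, and the neutrophil markers were scarce, at 7.98 to 20.9 CPM in sum over the 9 libraries, with Camp, Ngp and Mpo not listed. The part of neutrophils in the Lcn2 values was not tested.

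Other secreted proteins of adipocytes moved in both directions, 4 of 23 higher and 8 lower in WT Cold (median log2 fold change -0.32) and 3 higher and 9 lower in GCN2 KO Cold (median -0.31) against WT RT. The shares over all genes were 13.6% higher and 14.1% lower in WT Cold, and 16.4% and 17.8% in GCN2 KO Cold, so the counts higher are near them. White adipocyte markers fell beside them (4 of 10 in both comparisons, with 1 higher in WT Cold), as did preadipocyte and fibroblast markers (4 and 5 of 9), and their part was not tested. The lists are not separate. Npr3 is also a white adipocyte marker here, and Dpp4, called lower in both comparisons, is also a preadipocyte and fibroblast marker. Lpl, which frees fatty acids from circulating lipoproteins, rose by 1.55 ± 0.10 on the log2 scale in WT Cold (adjusted p = 0.000131 by limma), and Adm, the vasodilator adrenomedullin, by 1.29 ± 0.14 (adjusted p = 0.000996). Apln, which encodes apelin, fell by 1.35 ± 0.29 (adjusted p = 0.0120) and Ccdc3 had a log2 fold change of -1.41 ± 0.25 (adjusted p = 0.00558). Ccdc80 had the largest difference of this list in GCN2 KO Cold vs WT RT, at -1.77.

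Transcription factors with known roles at adipokine genes were 20, of which 9 rose and 3 fell in WT Cold (median log2 fold change 0.32) and 8 rose and 4 fell in GCN2 KO Cold (median 0.15) against WT RT. Over all genes 13.6% rose and 14.1% fell in WT Cold, and 16.4% and 17.8% in GCN2 KO Cold, so the counts lower are near the background. Of 11 brown adipocyte markers 7 rose and 1 fell in WT Cold, and their part was not tested. In WT Cold, Klf15 (1.24 ± 0.24, adjusted p = 0.00849 by limma), Foxo1 (1.23 ± 0.15, adjusted p = 0.00142) and Fosl2 (1.21 ± 0.15, adjusted p = 0.00143) rose. Srebf1, a regulator of lipid synthesis, fell by 1.23 ± 0.15 (adjusted p = 0.00129). Cebpa, a factor of adipocyte differentiation, fell in GCN2 KO Cold vs WT RT (-0.95, adjusted p = 0.00459). Of 12 core clock genes 4 rose and 2 fell in WT Cold, with Per2 at 1.89, Cry1 at 1.65, Arntl at 1.56 and Nr1d1 at -1.55, and 5 rose and 2 fell in GCN2 KO Cold against WT RT (medians 0.29 and -0.03). The 2 of 12 lower are near the 14.1% and 17.8% of all genes lower, while 13.6% and 16.4% were higher. Under CPM the counts in GCN2 KO Cold vs WT RT moved toward lower, to 0 higher and 8 lower for the receptors, 1 and 3 for adiponectin assembly, 0 and 8 for the renin angiotensin enzymes, 0 and 7 for complement, 2 and 7 for NAD, 1 and 8 for vitamin A, 2 and 2 for the acute phase list, 1 and 11 for other secreted proteins, 7 and 6 for the transcription factors and 4 and 4 for the clock genes. In GCN2 KO Cold vs WT Cold no gene of these lists but Cd59a passed by limma with all libraries, and without both libraries low in Ddx3y 1 vitamin A gene, Aldh1a7, and 1 acute phase gene, Orm1, were higher as well. In that fit 11 of 12 skeletal muscle markers and 1 of 10 white adipocyte markers were lower and 1 of 11 brown adipocyte markers higher, and their part was not tested. Among the other lists, genes with the smallest p of their list were C3ar1 (-0.78), Gstk1 (0.31), Ace, Parp1 (0.26), Aldh1a7, Orm1 (0.79), Stat3 (-0.39) and Cry2 (-0.24), with log2 fold changes in brackets.

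**Figure D4:**
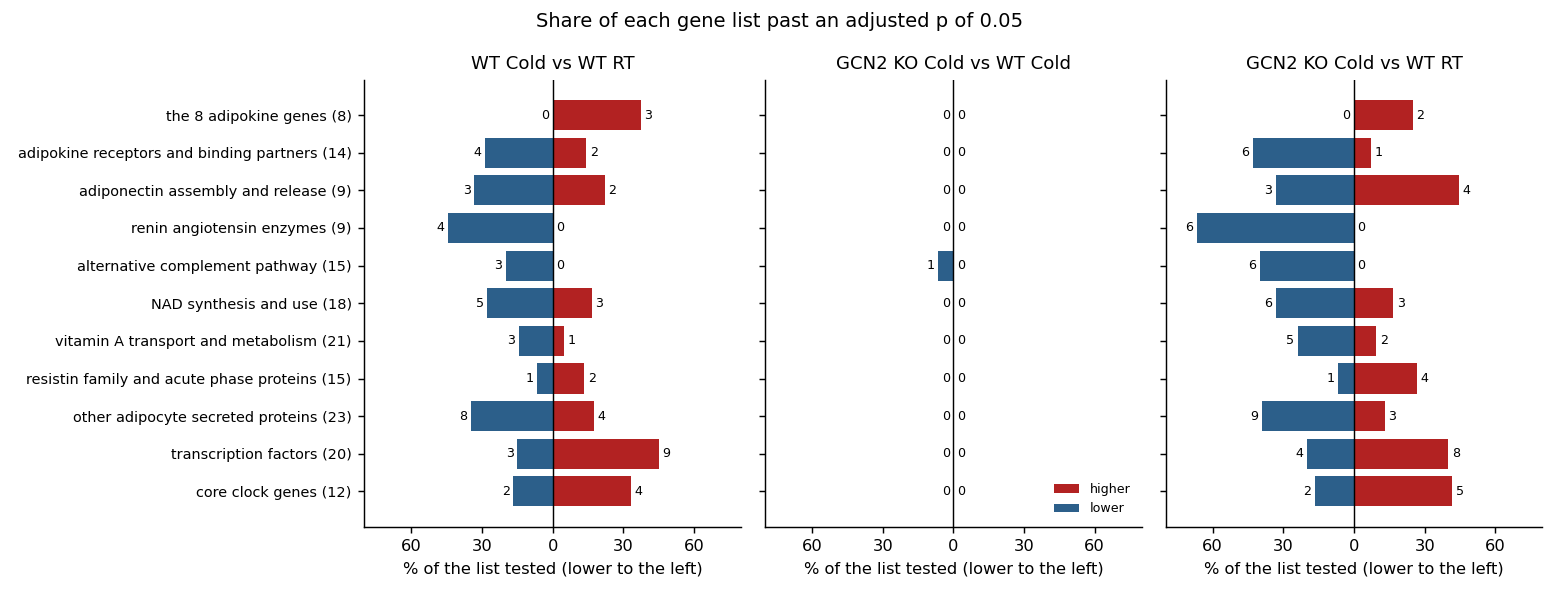
Bars give the percentage of each list's tested genes (number in brackets) that were higher, to the right, or lower, to the left, at an adjusted p below 0.05 by limma, with the counts printed at the bar ends. Renin angiotensin enzymes and complement genes have bars to the left only in both comparisons with WT RT, and the middle panel is empty but for 1 complement gene. Over all genes 13.6% were higher and 14.1% lower in WT Cold vs WT RT. The 3 complement genes lower there were the receptors C3ar1, C5ar1 and C5ar2.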

How the data were processed

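RNA was sequenced from BAT of 9 mice, 3 per group. According to the study's methods and the submitters' processing notes, reads were trimmed (Trimmomatic 0.36), aligned with STAR 2.5.2b to GRCm39, counted in exons with featureCounts (Subread 1.5.2) and compared with DESeq2. The deposited tables, 1 per comparison, hold a signal for every gene and library, namely its read count over a size factor that the authors estimated for each table. Fold changes (log2) and raw and adjusted p-values of the authors stand beside them and were not used. Columns carry library codes only, so libraries were tied to groups and not to mice. No column came from other samples (0). Every value was a whole multiple of what 1 read is worth (100.0% within 0.001 reads), so whole reads were recovered, and CPM were computed from them.

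The main test was limma 3.58.1 (R 4.3.3) on log2(normalized count + 1), fitted to the 2 groups of a table with the trend option, and p-values were adjusted by Benjamini-Hochberg over all its genes. On that scale the change of low genes is understated. DESeq2 1.42.0 and edgeR 4.0.16 (quasi-likelihood) on recovered reads were alternatives, as were other pseudocounts, filters, scalings and each library left out. The tests were checked on simulated data. Changed genes had an adjusted p below 0.05. All 8 members were named. From each list up to 4 genes with the largest change among those called were named, or the 1 with the smallest p. Some genes that this rule selects are not reported here. The members and lists were chosen with earlier results of these data known. Coordinates, exon lengths (GENCODE M21) and promoters (RefSeq) are from GRCm38, not the authors' build. Replicates are biological per the labels, and n = 3 limits every interval.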

Additional observations from a re-analysis of the deposited data

How the results depend on the processing

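No paired analysis was possible because the columns carry no replicate numbers. The number of adipokine genes changed in WT Cold vs WT RT, 3, became 0 without the mean-variance trend and 2 in CPM, where Cfd was lost, was 3 in the joint fit of all 9 libraries, and ran from 0 to 3 when each library was left out. Past both thresholds it was 0, became 1 by DESeq2 and 1 by edgeR, and ran from 0 to 2 with a library left out (1 without WT RT A, Cfd, and 2 without WT Cold A, Cfd and Agt). In GCN2 KO Cold vs WT Cold both counts were 0 under every alternative run, including without both libraries low in Ddx3y, which was chosen after seeing the data. In GCN2 KO Cold vs WT RT 2 genes were changed, Cfd and Nampt. Without the trend 1 was called, Nampt. In CPM 1 was called, Adipoq lower, and in the joint fit of all 9 libraries 1, Lep lower, with Cfd and Nampt called in neither (adjusted p = 0.132 and 0.127 in the joint fit by limma). DESeq2 called 3, adding Agt, and 1 to 5 were called with a library left out. Past both thresholds the joint fit gave 1, Lep. The cause was not tested. No gene called with all libraries changed sign. Lcn2 did, from -0.84 without WT Cold C to 0.71 without WT Cold A in WT Cold vs WT RT, and from -0.36 without GCN2 KO Cold B to 0.74 without GCN2 KO Cold A in GCN2 KO Cold vs WT RT, where the last passed, and from -0.60 without WT Cold A to 0.96 without WT Cold C in GCN2 KO Cold vs WT Cold. Of the other genes not called, Adipoq and Nampt in GCN2 KO Cold vs WT Cold and Retn in GCN2 KO Cold vs WT RT also took both signs. The list counts in CPM and without library C were added after seeing the data. Leaving a library out leaves 2 against 3, so these calls have less power by construction. The 48 reads of Lep are the thinnest value.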
